A study of Mus musculus with 10 samples.

Results

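The p53 axis and the CDK inhibitors of mouse embryonic fibroblasts were followed through 10 genes, Trp53, Mdm2, Cdkn1a, Cdkn1b, Cdkn2a, Cdkn2b, Cdkn2c, Ccng1, Bax and Glb1. They were taken by name from a table of 52550 genes, and all 10 were found and had enough reads to be tested. Mouse embryonic fibroblasts (MEFs) are primary connective tissue cells grown out of whole embryos. Here they came from C57BL/6 embryos at embryonic day 14 with no allele or treatment named, and were sequenced at passage 3, with 5 libraries from female cells and 5 from male cells. Per the labels' protocols, ribosomal RNA was removed from total RNA before directional library preparation, and cells were kept to at most 3 passages so that replicative senescence would be avoided. Nothing in the labels tells whether libraries of one sex stem from different embryos or cultures, and the p-values therefore reflect only how far these libraries spread, which may be technical.

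The p53 protein, encoded by Trp53, is a transcription factor that is kept low by the ubiquitin ligase Mdm2, and Mdm2 is itself a p53 target, which closes a feedback loop. The Cdkn2a locus encodes p16Ink4a, an inhibitor of CDK4 and CDK6, and p19Arf, which binds Mdm2 and so frees p53. In cultured mouse fibroblasts, both products of Cdkn2a are known to build up with passage, and the loss of Cdkn2a or of Trp53 lets the cells escape senescence. The activity of lysosomal beta-galactosidase, the product of Glb1, is a widely used stain for senescent cells.

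Each library held between 30662616 and 45859721 unique gene reads, which are reads placed at 1 locus and counted over exons and introns. Of 16602 tested genes, 15 were called between the sexes (36 without male replicate 1), and the authors' deposited table gives a signed fold of 1681 for Xist (female) and of -189 for Ddx3y (male), so the check genes followed the sex labels. All 14 fibroblast markers listed were measured, with a summed level of 26669 ± 2770 CPM (the counts-per-million scale of each library) in female libraries and 27057 ± 2191 CPM in male libraries (SD, n = 5 each). Markers of other cells were present at lower sums, among them macrophage markers at 53 to 126 CPM in female libraries and 62.2 to 91.2 CPM in male libraries, and endothelial markers at 107 to 162 CPM in female libraries and 91.8 to 123 CPM in male libraries. The female library with replicate number 5 had the highest sum of both. In such bulk samples, fewer cells of a type and less RNA per cell cannot be told apart.

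Trp53 was measured at nearly the same level in every library. It had 121, 118, 107, 120 and 124 CPM in female libraries 1 to 5, against 105, 117, 114, 130 and 115 CPM in male libraries 1 to 5. The sexes overlapped throughout, and the library with the highest level had only 1.23 times that of the lowest. Mdm2 had 263, 260, 273, 270 and 329 CPM in female libraries, against 251, 287, 289, 276 and 329 CPM in male libraries. The library numbered 5 was the highest of each sex.

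Beside Mdm2, the members hold 3 p53 targets that do different things. Cdkn1a encodes p21, which inhibits cyclin-CDK2 complexes, Ccng1 encodes cyclin G1, which recruits a phosphatase to Mdm2, and Bax encodes a pore-forming protein that permeabilises the outer mitochondrial membrane in apoptosis. Cdkn1a had 353, 369, 319, 356 and 380 CPM in female libraries, against 306, 380, 336, 379 and 391 CPM in male libraries. Bax had 92.2, 93.0, 80.6, 87.3 and 86.3 CPM in female libraries, against 76.5, 83.7, 80.7, 94.6 and 83.5 CPM in male libraries. Cdkn1a and Bax were both lowest in male library 1, the library that was also lowest for Trp53 and Mdm2. Ccng1 had 567 to 738 CPM in female libraries and 671 to 806 CPM in male libraries, and its lowest value stood in female library 5. Only 79.8% to 82.4% of the gene reads of Bax were placed at 1 locus, so its count misses reads shared with other loci and is less certain than those of the other members.

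The letters just upstream of these genes are shown because 10-letter p53 half-sites were found before several of them. A full p53 response element is made of a pair of such half-sites, and a full element was not searched. Windows of 250 bases before each annotated RefSeq start were searched on both strands, and 13 such windows belonged to the 10 members. The half-site was found in 5 of these 13 windows, which belonged to Trp53, Mdm2, Cdkn1a, Ccng1 and Bax, and in 7.13% of all 32851 windows. Cdkn1a had it at 73 to 64 and at 51 to 42 bases before the start of its first window and not in its second. A match describes the letters only, and no binding was measured. The capitals mark the half-site.
Trp53 (GRCm38.p6 chr11:69580109-69580358, plus strand): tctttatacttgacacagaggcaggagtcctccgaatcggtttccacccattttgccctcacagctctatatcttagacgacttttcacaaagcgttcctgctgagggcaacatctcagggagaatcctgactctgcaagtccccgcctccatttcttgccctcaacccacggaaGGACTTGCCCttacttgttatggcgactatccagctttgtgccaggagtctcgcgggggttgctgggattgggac
Mdm2 (GRCm38.p6 chr10:117710759-117711008, minus strand): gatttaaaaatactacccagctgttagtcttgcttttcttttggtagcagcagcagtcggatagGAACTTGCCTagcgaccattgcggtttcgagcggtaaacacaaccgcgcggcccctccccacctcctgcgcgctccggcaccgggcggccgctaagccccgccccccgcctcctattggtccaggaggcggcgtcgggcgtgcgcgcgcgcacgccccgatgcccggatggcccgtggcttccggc
Cdkn1a (GRCm38.p6 chr17:29090729-29090978, plus strand): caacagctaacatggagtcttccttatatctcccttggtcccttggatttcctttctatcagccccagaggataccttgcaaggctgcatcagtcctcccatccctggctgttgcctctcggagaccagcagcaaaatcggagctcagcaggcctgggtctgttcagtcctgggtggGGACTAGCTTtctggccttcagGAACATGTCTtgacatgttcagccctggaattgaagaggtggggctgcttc
Ccng1 (GRCm38.p6 chr11:40755287-40755536, minus strand): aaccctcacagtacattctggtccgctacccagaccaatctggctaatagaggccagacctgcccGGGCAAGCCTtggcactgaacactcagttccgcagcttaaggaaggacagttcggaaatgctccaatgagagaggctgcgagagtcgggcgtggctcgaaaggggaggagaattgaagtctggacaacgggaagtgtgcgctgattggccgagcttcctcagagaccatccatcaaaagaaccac
Bax (GRCm38.p6 chr7:45466899-45467148, minus strand): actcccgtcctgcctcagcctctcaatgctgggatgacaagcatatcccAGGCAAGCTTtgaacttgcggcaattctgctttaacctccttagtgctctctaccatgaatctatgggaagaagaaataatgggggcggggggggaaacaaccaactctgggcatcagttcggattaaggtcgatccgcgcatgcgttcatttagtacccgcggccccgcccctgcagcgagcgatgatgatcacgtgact

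The INK4 genes varied more from library to library than the p53 genes did. Cdkn2a had 60.7, 65.1, 38.8, 44.5 and 24.6 CPM in female libraries, against 55.7, 56.5, 44.6, 49.96 and 38.4 CPM in male libraries. Its level in female library 2 was 2.64 times that in female library 5, and the male values lay inside the female range. p16Ink4a and p19Arf transcripts are counted in 1 gene row, so their shares in these levels could not be separated. Cdkn2b, which encodes the CDK4 and CDK6 inhibitor p15Ink4b and lies 11635 bases from Cdkn2a on chromosome 4, had 85.1, 88.8, 64.4, 75.9 and 46.0 CPM in female libraries, against 80.1, 80.7, 76.2, 81.5 and 56.3 CPM in male libraries. Both genes were lowest in the library numbered 5 of each sex.

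Cdkn2c encodes p18Ink4c, another CDK4 and CDK6 inhibitor of the family, and was the member with the fewest reads. It had 6.21, 7.16, 8.59, 8.54 and 11.1 CPM in female libraries, against 7.06, 7.58, 8.58, 9.41 and 8.81 CPM in male libraries. Its highest library, female 5, was the lowest for Cdkn2a and Cdkn2b. Cdkn1b, which encodes the CDK2 inhibitor p27Kip1, had 19.7 to 27.4 CPM in female libraries and 17.6 to 22.2 CPM in male libraries, and was also highest in female library 5. Glb1 had 87.2, 87.6, 78.7, 85.4 and 73.5 CPM in female libraries, against 87.5, 89.3, 84.3, 91.8 and 78.6 CPM in male libraries. As with Cdkn2b, the library numbered 5 was the lowest of each sex.

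**Figure D1:**
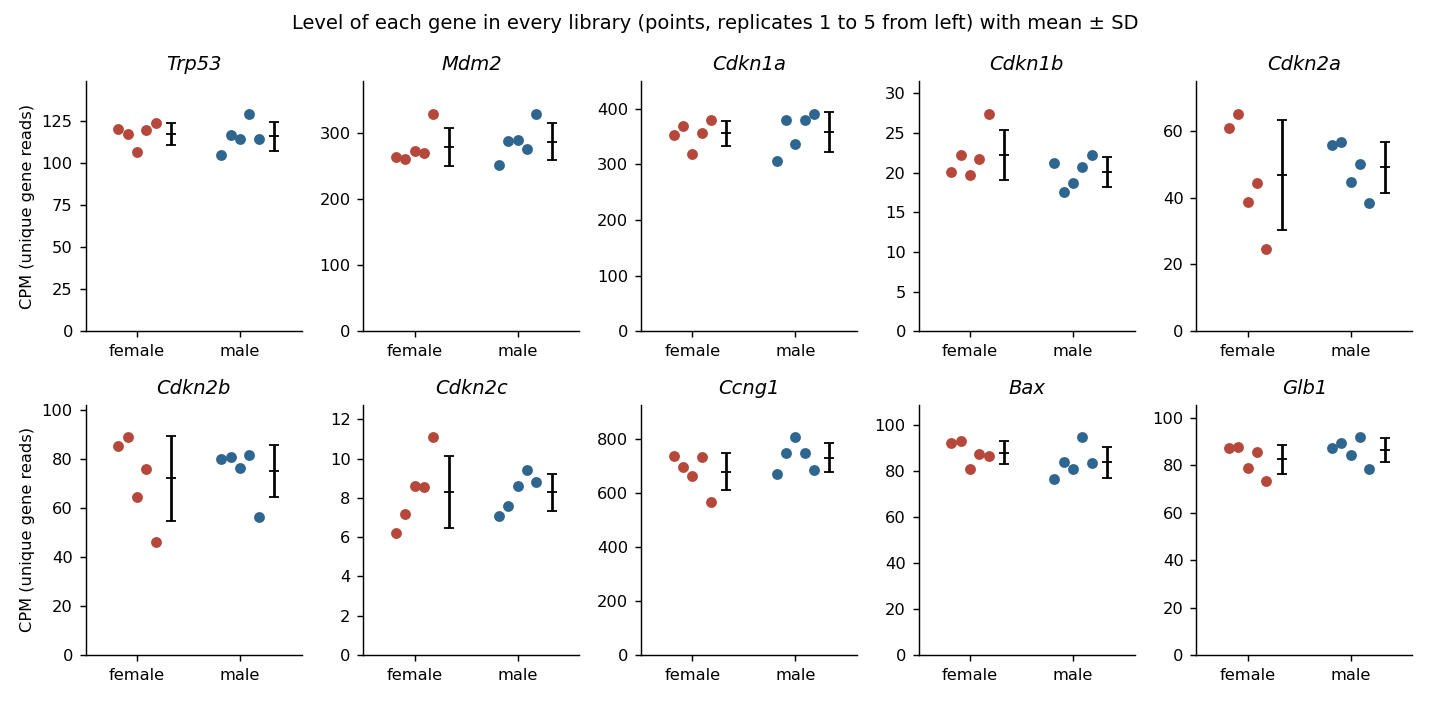
The level of each of the 10 genes in CPM of unique gene reads (vertical axis, from 0) in female and male libraries, with points for replicates 1 to 5 from left and a bar for the mean ± SD (n = 5 each). The points of the sexes overlap in every panel, and Cdkn2a and Cdkn2b reach down to 24.6 and 46.0 CPM in female replicate 5.

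Set against genes of like level, Cdkn2a and Cdkn2b stood toward the variable end. The coefficient of variation of Cdkn2a over the 10 libraries was 25.4%, and 1.97% of the 4325 genes within 2-fold of its mean were at least as variable, the median of these genes being 7.45%. For Cdkn2b the coefficient was 18.6%, which 5.43% of genes of like level reached. Trp53, Bax and Glb1 varied by 6.29%, 6.95% and 6.77%, close to the medians of 6.71%, 6.90% and 6.92% for genes of their levels. Cdkn1a varied by 8.01%, Ccng1 by 9.23%, Mdm2 by 9.56%, Cdkn1b by 12.7% and Cdkn2c by 16.7%, and between 21.5% and 36.5% of genes of like level were at least as variable as each of these.

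Per length, the p53 targets Ccng1 and Cdkn1a were the most abundant members. Exon CPM per kilobase of exon averaged 270 ± 23.3 for Ccng1 and 205 ± 12.4 for Cdkn1a over all 10 libraries (SD, n = 10). Bax followed with 70.4 ± 3.31, Cdkn2b with 64.3 ± 12.0, Mdm2 with 61.7 ± 6.11 and Cdkn2a with 50.01 ± 13.2 on that scale. The ranges of Ccng1 and Cdkn1a overlapped, as did those of each neighbouring pair among these 4. Trp53 had 37.3 ± 1.62 and Glb1 24.97 ± 2.11, and the lowest were Cdkn1b with 6.25 ± 0.813 and Cdkn2c with 3.57 ± 0.662 exon CPM per kilobase. The ranges of Trp53, Glb1, Cdkn1b and Cdkn2c did not overlap each other, while those of Trp53 and Cdkn2a did. The exon length used for Cdkn2a joins the exons of both its products, so its level per length is a mean over that union.

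No member passed the test for a difference between female and male cells. With edgeR's quasi-likelihood test and Benjamini-Hochberg adjustment over 16602 genes, 0 of 10 members had an adjusted p under 0.05, as against 0.0904% of all tested genes, and 0 of 10 had an unadjusted p under 0.05, as against 5.55% of all genes. In no member did all libraries of one sex lie above all of the other, which 0.976% of tested genes did. The authors' deposited table gives signed folds between -1.08 (Ccng1) and 1.11 (Cdkn1b) for the members, with a false discovery rate of 1 for each.

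How large a sex difference these libraries leave room for depended on the gene. Log2 differences, female minus male, were 0.02 ± 0.06 for Trp53, with an interval of -0.10 to 0.14, and -0.01 ± 0.07 for Cdkn1a, with an interval of -0.15 to 0.13 (SE from the fit, and 95% interval from that SE on a normal scale). For Cdkn2a the log2 difference was -0.07 ± 0.24, with an interval of -0.55 to 0.41, and for Cdkn2b -0.06 ± 0.17, with an interval of -0.40 to 0.28. Without female replicate 5 these 2 differences were 0.09 and 0.07, so even their direction rested on that library. Cdkn1b had the smallest p among the members, with a log2 difference of 0.15 ± 0.10 (edgeR quasi-likelihood test, adjusted p = 0.987). The log2 differences of the other 5 members lay between -0.11 (Ccng1) and 0.07 (Bax), with adjusted p of 0.994 to 0.999 in the same test.

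The wider p53 pathway gave no sex call either. The list of 31 tested p53 targets holds the members Cdkn1a, Mdm2, Ccng1 and Bax. Of the 31, 11 had a positive and 20 a negative log2 difference, with a median of -0.01 beside 0.00 over all genes, and none was called by edgeR's test. The smallest p among them belonged to the death receptor gene Tnfrsf10b, at 98.6 ± 4.56 CPM in female libraries and 109 ± 6.38 CPM in male libraries (SD, n = 5 each), with an adjusted p of 0.761 in edgeR's test. Perp, a p53 target of cell junctions, was at 11.02 ± 2.61 CPM in female libraries and 17.9 ± 7.72 CPM in male libraries (SD, n = 5 each; edgeR adjusted p = 0.869). Fas and Dcxr had log2 differences of -0.27 and -0.13 with edgeR adjusted p of 0.971 and 0.992. Among 19 tested regulators of p53, 12 differences were positive and none was called, the smallest p belonging to Rpl11, a ribosomal protein that binds Mdm2, with a log2 difference of 0.20 ± 0.07 (edgeR adjusted p = 0.706). Among 22 further CDK inhibitors, cyclins, CDKs and their partners, 14 differences were positive and none was called, and the smallest p belonged to Ccnd1, the cyclin D1 gene, with a log2 difference of -0.16 ± 0.07 (edgeR adjusted p = 0.850).

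The lists for cell state were likewise free of sex calls. Of 25 tested senescence and secretory markers, 8 differences were positive and 17 negative, with a median of -0.06. Fgf2, Ankrd1 and Lmnb1, which encodes the lamin B1 that is known to be lost in senescent cells, had log2 differences of -0.31, 0.27 and 0.18 with edgeR adjusted p of 0.759, 0.761 and 0.875. Of 13 tested BCL2 family genes 6 were positive, and Bid, a sensor of this family, had a log2 difference of -0.16 ± 0.07 (edgeR adjusted p = 0.894). Of 25 proliferation genes, 23 differences were positive, with a median of 0.08 and none called, and of 20 lysosomal genes 1 was positive and 19 negative, with a median of -0.06 and none called. Genes in each of these lists share libraries, so a common sign over a list is a description. Cdkn2d and Cdkn1c, the remaining INK4 and Cip/Kip genes, had log2 differences of 0.08 ± 0.11 and 0.17 ± 0.10 (edgeR adjusted p = 0.999 and 0.981).

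Over the libraries, Cdkn2a, Cdkn2b and Glb1 had positive correlations with each other, and Cdkn2a and Cdkn2b had negative ones with Cdkn2c and Mdm2. Log2 CPM of Cdkn2a and Cdkn2b correlated over the 10 libraries with a Pearson r of 0.95 (permutation p = 1e-05, the smallest the 100000 permutations can give, adjusted p = 0.00045 over the 45 pairs of members) and a Spearman rho of 0.96 (permutation p = 6e-05, adjusted p = 0.0027). Without the 2 libraries farthest from the median of Cdkn2a, r was 0.87. The call held when any 1 library was left out, with r of 0.89 to 0.97 and adjusted permutation p of 0.000124 to 0.00161. Of the 16601 other tested genes, Cdkn2b ranked 28th by the size of r with Cdkn2a, and Cdkn2a ranked 32nd with Cdkn2b. The levels of a library share its scaling factor, and the pair held an r of 0.95 with values centred on the mean of each sex.

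Glb1 moved with both. Its r was 0.94 with Cdkn2b (permutation p = 0.0005, adjusted p = 0.0103, rho = 0.85 with an adjusted p of 0.0439) and 0.89 with Cdkn2a (permutation p = 0.0008, adjusted p = 0.0126, rho = 0.81 with an adjusted p of 0.0615). Without the 2 farthest libraries these r values were 0.82 and 0.81. Female replicate 5 was the only library whose removal ended either call, with an r of 0.88 and an adjusted permutation p of 0.0716 for Cdkn2b, and an r of 0.77 and an adjusted permutation p of 0.157 for Cdkn2a. Glb1 had an r of -0.71 with Mdm2 and of -0.60 with Cdkn2c, and neither pair was called (adjusted permutation p = 0.0767 and 0.142). Without both libraries numbered 5 these r values were -0.06 and -0.15. With unique exon reads in place of all gene reads, r was -0.85 with Mdm2 and -0.71 with Cdkn2c. The pair with Mdm2 was then called and that with Cdkn2c was not (adjusted permutation p = 0.00977 and 0.0792). The span of Glb1 was small beside that of Cdkn2a, its highest library having 1.25 times the level of its lowest.

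The letters before the starts of Cdkn2a, Cdkn2b and Glb1 are printed because these 3 genes moved together. The first Cdkn2a window lies before the exon that begins p19Arf and the second before the exon that begins p16Ink4a. The E2F motif TTTNNCGC was found once in each Cdkn2a window and once in that of Mdm2, and in 4.28% of all windows, on either strand. The cAMP response element TGACGTCA was found in the Cdkn2b window and in 1.55% of all windows. The Glb1 window held an E-box CACGTG, found in 6.02% of all windows and also before Bax, and its first 2 bases were the last 2 of an AP-1 motif TGANTCA, which 6.75% of all windows held. No motif of those searched was shared by all 3 genes. The capitals mark the E2F motif in Cdkn2a, the cAMP response element in Cdkn2b and the E-box in Glb1.
Cdkn2a, first window (GRCm38.p6 chr4:89294620-89294869, minus strand): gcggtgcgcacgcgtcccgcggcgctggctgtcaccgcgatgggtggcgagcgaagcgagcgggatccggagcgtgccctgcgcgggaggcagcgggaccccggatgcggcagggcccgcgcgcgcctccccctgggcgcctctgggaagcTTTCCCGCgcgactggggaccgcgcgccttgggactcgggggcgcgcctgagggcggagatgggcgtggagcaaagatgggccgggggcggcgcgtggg
Cdkn2a, second window (GRCm38.p6 chr4:89282193-89282442, minus strand): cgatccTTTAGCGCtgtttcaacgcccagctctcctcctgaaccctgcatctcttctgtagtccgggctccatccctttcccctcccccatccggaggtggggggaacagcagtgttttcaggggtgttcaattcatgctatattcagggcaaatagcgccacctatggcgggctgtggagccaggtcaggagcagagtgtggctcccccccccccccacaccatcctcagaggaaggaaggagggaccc
Cdkn2b (GRCm38.p6 chr4:89311033-89311282, minus strand): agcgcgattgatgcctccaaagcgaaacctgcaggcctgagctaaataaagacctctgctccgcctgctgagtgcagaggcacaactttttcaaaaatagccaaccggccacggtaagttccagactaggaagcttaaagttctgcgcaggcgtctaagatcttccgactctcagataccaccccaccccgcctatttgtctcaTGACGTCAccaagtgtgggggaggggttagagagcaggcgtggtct
Glb1 (GRCm38.p6 chr9:114400828-114401077, plus strand): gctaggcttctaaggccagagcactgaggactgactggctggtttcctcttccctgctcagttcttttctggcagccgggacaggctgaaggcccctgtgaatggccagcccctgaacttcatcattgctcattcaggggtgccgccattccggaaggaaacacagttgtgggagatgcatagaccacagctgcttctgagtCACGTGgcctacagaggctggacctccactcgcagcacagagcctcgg

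**Figure D2:**
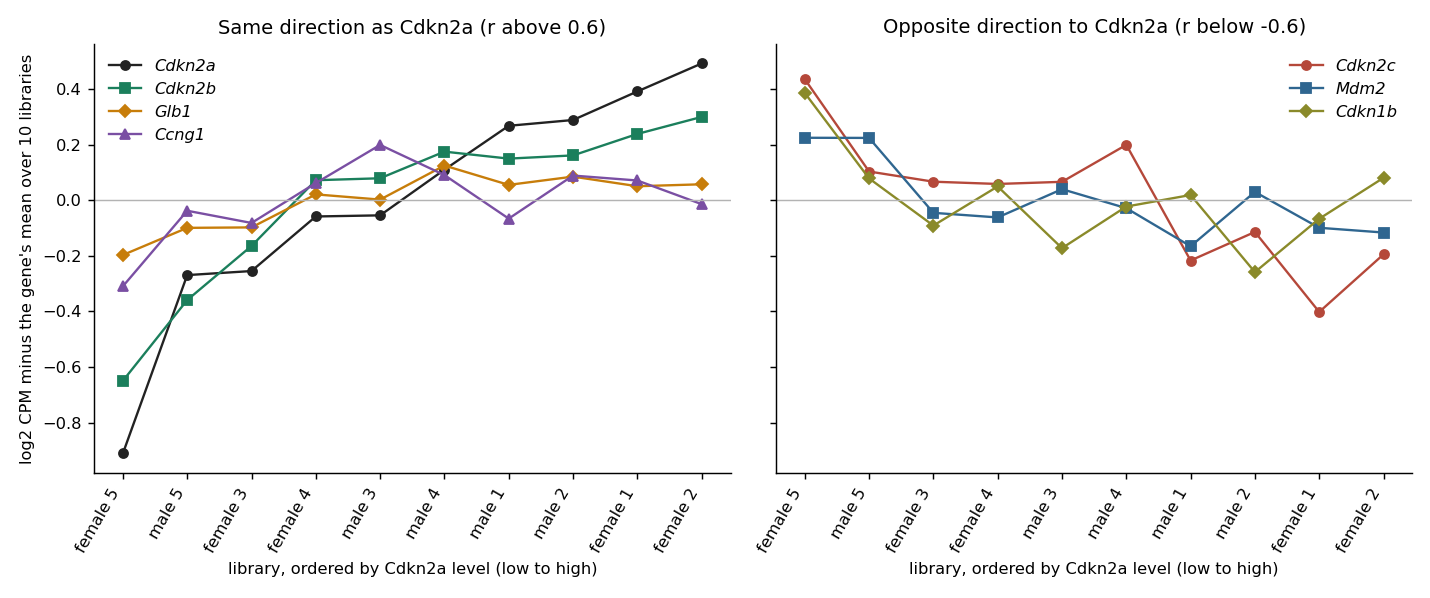
Log2 CPM of each gene minus its mean over the 10 libraries (vertical axis), with libraries ordered by the level of Cdkn2a from low to high. Cdkn2b, Glb1 and Ccng1 (left, with r above 0.6 to Cdkn2a) are lowest in female replicate 5, and Cdkn2c, Mdm2 and Cdkn1b (right, with r below -0.6) are highest there or equal to the highest. The pairs of Cdkn2a with Ccng1 and with Cdkn1b, at r of 0.65 and -0.62, were not called (adjusted permutation p = 0.136 and 0.142). Without female replicate 5 these r values were 0.12 and -0.04.

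Cdkn2c ran against its 2 INK4 relatives. Its r was -0.87 with Cdkn2a (permutation p = 0.0012, adjusted p = 0.0138, rho = -0.81 with an adjusted p of 0.0615) and -0.76 with Cdkn2b (permutation p = 0.0084, adjusted p = 0.0448, rho = -0.66 with an adjusted p of 0.215). Without the 2 farthest libraries r was -0.76 with Cdkn2a and -0.54 with Cdkn2b, and without female replicate 5 neither pair was called, with adjusted permutation p of 0.168 and 0.396. The pair of Cdkn2c and Cdkn2b lost its call with 9 of the 10 libraries when left out in turn, with adjusted permutation p of 0.0544 to 0.396, all but male replicate 4. Cdkn2c rested on few reads, with 183 to 369 exon reads per library. Mdm2 had an r of -0.84 with Cdkn2b and of -0.78 with Cdkn2a (permutation p = 0.0054 and 0.0058, adjusted p = 0.0374 for both, rho = -0.65 and -0.70 with adjusted p of 0.215 and 0.187). These rested on the libraries numbered 5, since without both of them r was -0.30 and -0.44. The pair with Cdkn2b lost its call without female 1, 2 or 5 or male 1 or 5, with adjusted permutation p of 0.0575 to 0.181, and the pair with Cdkn2a without those or male 3, with 0.0574 to 0.328.

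Trp53 had called pairs with 2 of its targets, Bax and Cdkn1a, which were not a called pair themselves. Cdkn1a and Bax had an r of 0.63 (adjusted permutation p = 0.14), and 0.15 without the 2 farthest libraries. Trp53 and Bax had an r of 0.84 (permutation p = 0.0024, adjusted p = 0.0217, rho = 0.89 with an adjusted p of 0.0281), which was 0.64 without the 2 farthest libraries, male 1 and male 4, and 0.87 without female replicate 5 (adjusted permutation p = 0.0281). Its call was lost without female 1, male 1 or male 4, with adjusted permutation p of 0.0515 to 0.0589. Trp53 and Cdkn1a had an r of 0.76 (permutation p = 0.0105, adjusted p = 0.0474, rho = 0.55 with an adjusted p of 0.326), and 0.61 without the 2 farthest libraries, and its call was lost with 9 of the 10 libraries when left out in turn, all but male replicate 5, with adjusted permutation p of 0.0598 to 0.18. With unique exon reads in place of all gene reads, r was 0.64 for Trp53 and Bax and 0.52 for Trp53 and Cdkn1a, and neither was called (adjusted permutation p = 0.144 and 0.254). Trp53 had an r of -0.10 with Cdkn2a and of -0.02 with Cdkn2b, and Cdkn1a one of -0.18 and of -0.25 with them. Trp53 and its regulator Mdm2 had an r of 0.27, and Mdm2 and Cdkn1a one of 0.61 (adjusted permutation p = 0.14).

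Cdkn1b and Ccng1 made the remaining called pair, with an r of -0.82 (permutation p = 0.009, adjusted p = 0.0448, rho = -0.59 with an adjusted p of 0.326). Cdkn1b was highest and Ccng1 lowest in female replicate 5, and without that library r was -0.54 (adjusted permutation p = 0.418). The call was also lost without female 1 or 2 or male 1, 2, 3 or 5, with adjusted permutation p of 0.0575 to 0.0738. In all, 10 of the 45 pairs were called, 5 of them positive and 5 negative. Without female replicate 5, 2 pairs were called, Cdkn2a with Cdkn2b and Trp53 with Bax, and without both libraries numbered 5 Cdkn2a with Cdkn2b was the 1 pair called. Without female 1 there were 4 called pairs, without female 2 there were 5, without male 1 there were 4 and without male 5 there were 6.

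**Figure D3:**
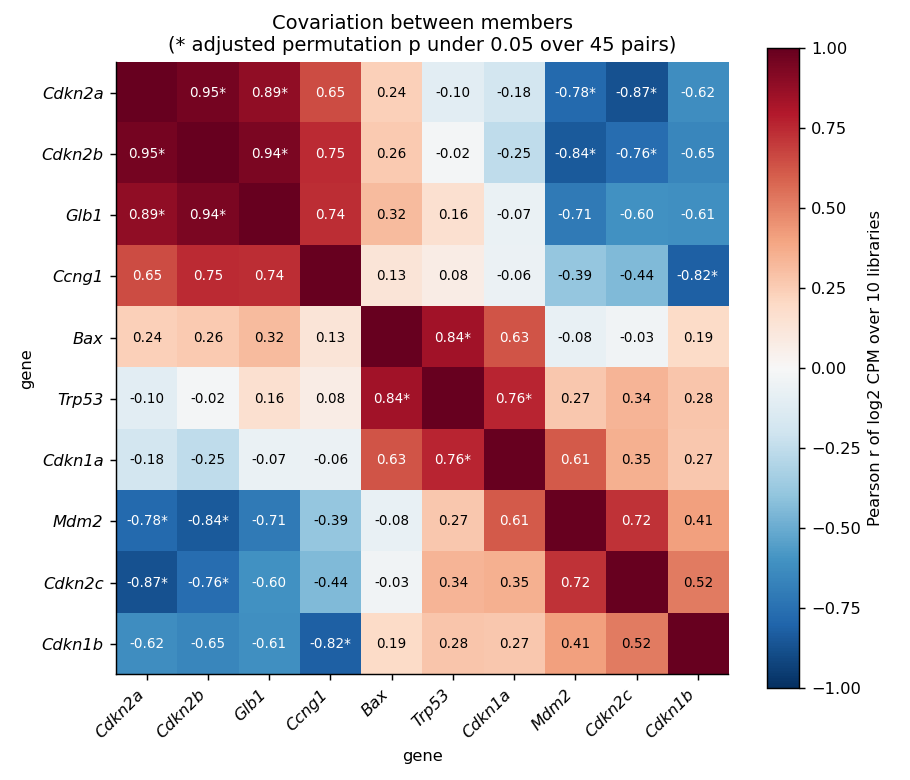
Pearson r of log2 CPM over the 10 libraries for each pair of the 10 genes (colour and number, from -1 in blue to 1 in red), with asterisks at the 10 pairs whose permutation p adjusted over 45 pairs is under 0.05. Cdkn2a, Cdkn2b and Glb1 form a red block of 0.89 to 0.95, and the pairs of Bax, Trp53 and Cdkn1a have 0.63 to 0.84, the 0.63 of Cdkn1a and Bax without an asterisk.

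Such r values are not rare in these libraries. An r of at least 0.8 in size was reached with Cdkn2a by 5.64% of the 16601 other genes, with Cdkn2b by 5.07%, with Glb1 by 4.2%, with Cdkn2c by 3.95%, with Bax by 3.86%, with Mdm2 by 3.57% and with Trp53 by 3.4%. For Cdkn1a, Ccng1 and Cdkn1b the share was 2.46%, 2.34% and 1.55%. Of the 9 other members, 3 reached it with Cdkn2a, 3 with Cdkn2b, 2 with Glb1, 1 each with Trp53, Bax, Mdm2, Cdkn2c, Ccng1 and Cdkn1b, and 0 with Cdkn1a.

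The 5 genes most like Cdkn2a were taken from 10421 with a mean of at least 5 CPM. They were Sar1a, a small GTPase of vesicles leaving the endoplasmic reticulum, with an r of 0.97 over the 10 libraries, Gabarapl1, an autophagosome protein, with 0.97, the acyl-CoA dehydrogenase Acadl with 0.97, the Golgi protein gene Tmf1 with 0.97 and the coatomer subunit gene Arcn1 with 0.97. Without female replicate 5 their r with Cdkn2a was 0.92 to 0.95. Trp53 was followed most closely by the proteasome subunit gene Psmb6 with an r of 0.96, by Mdh2, a mitochondrial malate dehydrogenase, with 0.95, by the translation initiation factor subunit genes Eif3i and Eif3b with 0.94 and 0.93, and by Jpt1 with 0.93. Cdkn1a was followed by Slc27a4, a fatty acid transporter, with 0.95, by the p53 target Phlda3 with 0.94, and by Tmem115, Zmynd19 and Slc35b2 with 0.94, 0.94 and 0.93. These r values were picked as the highest of all genes and describe these libraries only.

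Proliferation genes ran against Cdkn2a and with Cdkn2c. All 25 listed proliferation genes had a negative r with Cdkn2a, with a median of -0.74, while 50.9% of all other tested genes were negative. All 25 had a positive r with Cdkn2c, with a median of 0.84, while 50.4% of all other tested genes were positive. Without female replicate 5, 24 of 25 remained negative with Cdkn2a, with a median of -0.46, and 25 of 25 positive with Cdkn2c, with a median of 0.74. Their r with Cdkn2a ran from -0.96 for Mybl2, a transcription factor of the cell cycle, to -0.31 for the mitotic checkpoint kinase gene Bub1. Mki67, the proliferation marker Ki-67, had an r of -0.76 with Cdkn2a and of 0.90 with Cdkn2c. With Trp53, 24 of the 25 had a positive r, with a median of 0.49. With Cdkn2b and Glb1 all 25 were negative, with medians of -0.58 and -0.46, and 19 and 16 without female replicate 5. With Mdm2, Cdkn1a and Cdkn1b 23 were positive, with medians of 0.54, 0.34 and 0.58, and 21, 18 and 21 without that library. With Bax 20 were positive, and with Ccng1 23 were negative, but 4 without that library. Between 49.0% and 52.8% of all other tested genes were positive with each member.

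The summed CPM of these 25 genes was 1432, 1466, 1622, 1713 and 1946 in female libraries, against 1358, 1485, 1660, 1754 and 1639 in male libraries. Female library 5 was the highest and male library 1 the lowest. In a family of 130 relations between library measures and members, the proliferation sum had an r of 0.94 with Cdkn2c (permutation p = 0.00017, adjusted p = 0.00737, rho = 0.88 with an adjusted p of 0.0445), which was 0.93 without the 2 farthest libraries and 0.90 without female replicate 5. With Cdkn2a its r was -0.83 (permutation p = 0.0027, adjusted p = 0.0501, rho = -0.70), which was -0.72 without the 2 farthest libraries. That relation was not called.

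Lysosomal genes moved with Cdkn2a, Cdkn2b and Glb1. Of 20 listed lysosomal genes, Glb1 among them, 18 had a positive r with Cdkn2a, with a median of 0.73, while 49.1% of all other tested genes were positive. The 2 exceptions were Tfeb, the transcription factor of lysosomal genes, with an r of -0.93 with Cdkn2a, and Gusb with -0.05. Of the 19 other than Glb1, 18 had a positive r with Glb1, with a median of 0.84. Other members had such counts too. With Trp53, Ccng1 and Bax 18 of 20 were positive, with medians of 0.24, 0.65 and 0.37, and 19, 17 and 18 without female replicate 5. With Cdkn1a 16 were positive. With Mdm2, Cdkn2c and Cdkn1b 18, 18 and 17 were negative, with medians of -0.54, -0.51 and -0.50, and 17, 14 and 11 without that library. The cathepsin genes Ctsa, Ctsb and Ctsd had an r of 0.94, 0.96 and 0.94 with Glb1. Tfeb and Gusb, like the highest and lowest genes of these lists, were chosen after their values were seen.

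The summed CPM of the 19 lysosomal genes without Glb1 was 3974, 4024, 3500, 3828 and 3271 in female libraries, against 3848, 4092, 3759, 4157 and 3569 in male libraries. The libraries numbered 5 and 3 were the lowest of each sex. This sum had an r of 0.98 with Glb1 (permutation p = 1e-05, the smallest possible, adjusted p = 0.0013, rho = 0.98 with an adjusted p of 0.0052), and 0.96 without the 2 farthest libraries. Its r was 0.92 with Cdkn2b (permutation p = 0.00035, adjusted p = 0.0114, rho = 0.88 with an adjusted p of 0.0445) and 0.90 with Cdkn2a (permutation p = 0.00056, adjusted p = 0.0146, rho = 0.82 with an adjusted p of 0.112). Without the 2 farthest libraries these were 0.82 and 0.73, and without female replicate 5 they were 0.85 and 0.80.

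**Figure D4:**
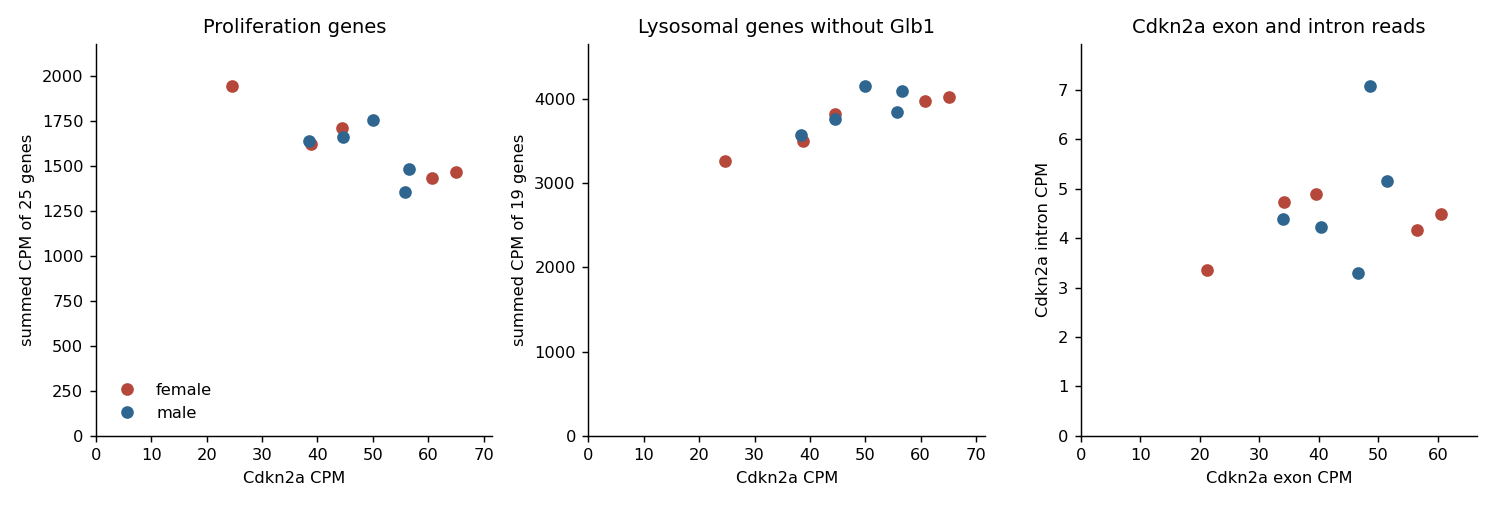
Cdkn2a CPM of each library (horizontal axis, from 0) against the summed CPM of 25 proliferation genes (left) and of 19 lysosomal genes without Glb1 (middle), and Cdkn2a exon CPM against its intron CPM (right). The proliferation sum lies between 1358 and 1946 CPM and is highest where Cdkn2a is lowest, the lysosomal sum lies between 3271 and 4157 CPM and is lowest there, and in the right panel r is 0.38.

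Markers of cell types also varied over the libraries. Of 14 tested macrophage markers, 13 had a negative r with Cdkn2a, with a median of -0.61, and 13 a negative r with Cdkn2b, with a median of -0.64. Without female replicate 5 these were 10 of 14 with a median of -0.34 for Cdkn2a and 13 of 14 with a median of -0.36 for Cdkn2b. Ccng1 and Glb1 also had 13 of 14 negative, with medians of -0.63 and -0.59, and 13 and 11 without that library. Cdkn1b and Cdkn2c had 13 of 14 positive, with medians of 0.58 and 0.47, and 10 and 9 without that library. These macrophage markers had medians of 0.17, 0.43, 0.13 and 0.02 with Trp53, Mdm2, Cdkn1a and Bax. Their sum had an r of -0.80 with Cdkn2a (permutation p = 0.00598, adjusted p = 0.0864, rho = -0.72), of -0.36 without the 2 farthest libraries and of -0.58 without female replicate 5, and an r of -0.82 with Cdkn2b (permutation p = 0.00263, adjusted p = 0.0501, rho = -0.66), and neither relation was called. Lyz2, the most abundant of them, averaged 41.3 ± 14.6 CPM in female libraries and 36.5 ± 8.06 CPM in male libraries (SD, n = 5 each). The endothelial sum had an r of 0.96 with Cdkn1b (permutation p = 0.00013, adjusted p = 0.00737, rho = 0.88 with an adjusted p of 0.0445), which was 0.84 without the 2 farthest libraries and 0.90 without female replicate 5. Gene by gene, 6 endothelial markers had a positive and 4 a negative r with Cdkn1b, with a median of 0.18, among them Flt1 with 0.87 and Egfl7 with 0.63, and Esam with -0.30 and Emcn with -0.25, all 4 picked after their values were seen. All 14 fibroblast markers had a positive r with Cdkn2a and with Glb1, with medians of 0.52 and 0.41. With female replicate 5 left out, 13 of 14 were positive with each, with medians of 0.68 and 0.46. The fibroblast sum had an r of 0.66 with Cdkn2a and of 0.70 with Glb1 (adjusted permutation p = 0.202 and 0.183), and neither was called. No listed macrophage or endothelial marker was at 0 reads in all libraries. The part of these cells in the levels of Cdkn2a, Cdkn2b and Cdkn1b was not tested.

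The r values of the p53 targets were of both signs. With Trp53, 23 of 31 had a positive r, with a median of 0.23, and with Cdkn1a 22 of 30, with a median of 0.29, where 52.7% of all other genes were positive with each. The list holds the members Cdkn1a, Mdm2, Ccng1 and Bax, whose r with Trp53 was 0.76, 0.27, 0.08 and 0.84, so these pairs are counted again here. With Mdm2, 16 of the 30 other targets were positive and 14 negative, from 0.92 for Pidd1 to -0.91 for Gadd45a, with a median of 0.04. With female replicate 5 left out, 20 were positive and 10 negative, with a median of 0.29. Gadd45a, a growth arrest gene, had an r of 0.97 with Cdkn2b and of -0.01 with Trp53. Aen, an exonuclease gene, had an r of 0.78 with Mdm2 and of -0.72 with Cdkn2a. These targets were singled out after their values were seen.

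Markers of senescence and of its secretory state also had r values of both signs. The list joins secreted factors with genes such as Lmnb1, which is known to be lost in senescent cells, so 1 common sign is not predicted. With Cdkn2a, 17 of 25, the member Glb1 among them, had a positive r and 8 a negative r, with a median of 0.29. Of all other tested genes, 49.1% were positive with Cdkn2a. Without female replicate 5, 15 of the 25 were positive and 10 negative, with a median of 0.29. Igfbp3, an insulin-like growth factor binding protein, had an r of 0.87 with Cdkn2a and of 0.92 with Glb1, and the cytokine gene Il6 one of 0.83 and of 0.86. Lmnb1 had an r of -0.83 with Cdkn2a, and no other of the 8 negative markers is named here. Igfbp3, Il6 and the r values named here were picked after they were seen and carry no test.

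Reads in introns, which in total RNA come largely from transcripts that are not yet spliced, made up very different shares of the members' reads. They were 34.1% ± 3.40 of the unique gene reads of Glb1 in female libraries and 34.7% ± 3.02 in male libraries (SD, n = 5 each), and 17.97% ± 2.09 of those of Mdm2 in female libraries and 18.3% ± 4.22 in male libraries. Cdkn2c, Cdkn2b and Cdkn2a had means of 14.9%, 10.1% and 10.0% over the 10 libraries, Cdkn1a, Trp53 and Bax 5.70%, 4.73% and 4.55%, and Ccng1 and Cdkn1b 0.947% and 0.915%. Over whole libraries the share was 22.5% to 28.6%. Glb1, whose introns span 70815 bases, was the only member above it.

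Per kilobase, intron reads ranked the members differently from exon reads. Mdm2 and Cdkn1a had the highest means, with 4.15 ± 0.854 and 3.66 ± 0.696 intron CPM per kilobase of intron (SD, n = 10), and Cdkn2a the lowest, with 0.329 ± 0.087. The range of Cdkn2a, 0.221 to 0.537, overlapped those of Cdkn1b, Cdkn2c and Glb1, so the lowest rank was not resolved. The intron length of Cdkn2a is its span less its exons and includes bases before the exon that begins p16Ink4a. Cdkn2b had 2.96 ± 0.422 on that scale, and its lowest library lay above the highest of Cdkn2a. Its exon level per kilobase, in contrast, overlapped that of Cdkn2a.

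**Figure D5:**
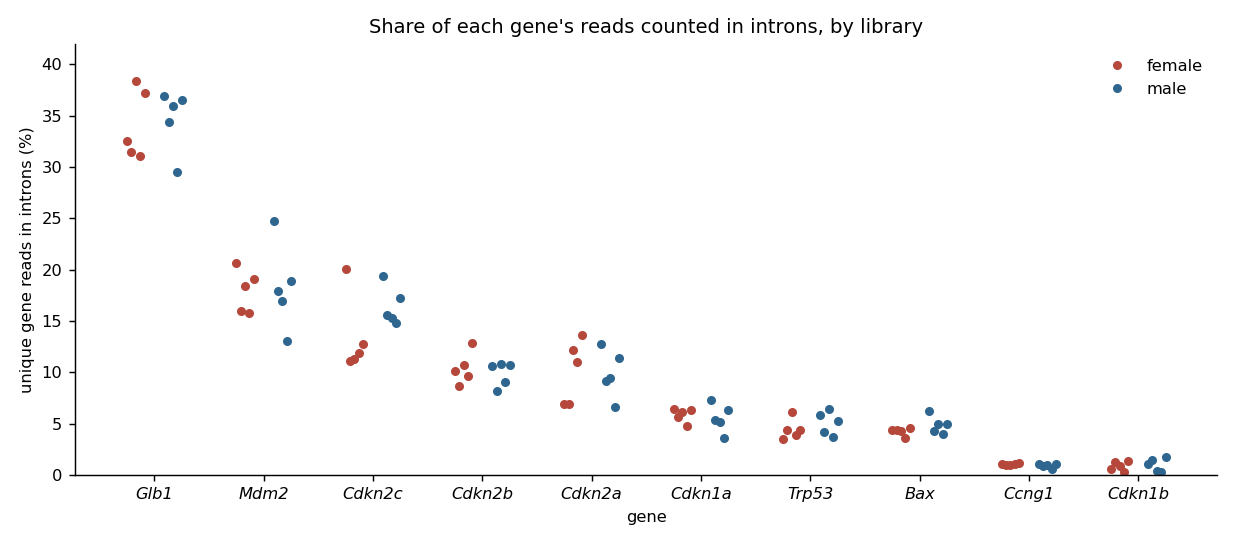
Share of the unique gene reads of each gene that were counted in introns, in percent (vertical axis, from 0), with 1 point per library and female points left of male points. Glb1 lies highest, at 29.5% to 38.4%, Ccng1 and Cdkn1b lie lowest, and the sexes overlap for every gene.

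No member passed the test for a sex difference in its intron share. Of the 9 members with enough intron reads, 0 had an adjusted p under 0.05 for the difference in intron against exon reads in edgeR's quasi-likelihood interaction test, as against 0.0342% of 11712 tested genes. Cdkn1b, with 2 to 16 intron reads per library, could not be tested. Bax alone had an unadjusted p under 0.05, which 3.74% of all tested genes had, with a log2 difference of -0.24 ± 0.11 (edgeR interaction test, adjusted p = 1). Its intron share was 4.23% ± 0.364 in female libraries and 4.87% ± 0.852 in male libraries (SD, n = 5 each). The log2 differences of Trp53, Cdkn2c and Ccng1 were -0.22 ± 0.11, -0.43 ± 0.23 and 0.21 ± 0.10, for which that edgeR interaction test gave p of 0.059, 0.0694 and 0.0533, and the other 5 members lay between -0.07 and 0.08.

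The variation of Cdkn2a lay more in its exon reads than in its intron reads. Its exon CPM spanned 2.84-fold over the 10 libraries and its intron CPM 2.11-fold, on 114 to 249 intron reads per library, and the 2 had an r of 0.38 (permutation p = 0.266, adjusted p = 0.666 over the 10 members, rho = 0.21). Female library 5, the lowest in exon reads, was at 3.35 intron CPM, and male library 4, with a middling exon level, at 3.30. Male library 4 also had the smallest intron share over all genes, 22.5%. It had the lowest intron CPM of Mdm2, Cdkn1a and Ccng1 too, while the remaining members were lowest in other libraries. Intron CPM was scaled to all gene reads and so also follows that share, whose part in the r of 0.38 was not tested. For Cdkn2b exon and intron CPM had an r of 0.77 (permutation p = 0.0073, adjusted p = 0.073, rho = 0.62), and 0.33 without the 2 farthest libraries. With intron reads in place of gene reads, none of the 45 member pairs was called, and Cdkn2a and Cdkn2b had an r of 0.36 (adjusted permutation p = 0.781). Intron counts were too few in several members for the absence of a call to say that their intron reads did not move together.

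Trp53 showed the opposite sign. Its exon and intron CPM had an r of -0.71 (permutation p = 0.0215, adjusted p = 0.108, rho = -0.76), and -0.66 without the 2 farthest libraries, on 155 to 308 intron reads per library. Its intron share was 3.48%, 4.32%, 6.08%, 3.85% and 4.38% in female libraries, against 5.78%, 4.14%, 6.39%, 3.66% and 5.25% in male libraries. Libraries with a larger intron share over all genes had less Trp53, with an r of -0.78 between that share and its CPM (permutation p = 0.00687, adjusted p = 0.0893 over the 130 relations, rho = -0.50), which was -0.48 without the 2 farthest libraries and -0.90 without female replicate 5. Bax had an r of -0.64 with that share (permutation p = 0.0383, adjusted p = 0.216, rho = -0.65). Neither relation was called. The part of this share, or of the scale, in the exon and intron r of Trp53 and in its covariation with Bax was not tested.

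Reads across exon junctions, a measure of spliced transcripts, were counted as a share of the exon reads of each member, and no test of sex was run on this share. They were 36.2% ± 0.871 for Trp53 in female libraries and 37.4% ± 1.06 in male libraries, and 59.5% ± 0.770 for Bax in female libraries and 59.8% ± 1.70 in male libraries (SD, n = 5 each). For Cdkn2a the share was 19.7%, 17.4%, 21.3%, 16.7% and 20.7% in female libraries, against 16.0%, 17.6%, 16.6%, 16.7% and 17.6% in male libraries. The highest 3 values were female, and the other 2 female values lay within the male range. For Cdkn2c, on 183 to 369 exon reads per library, the share was 8.74%, 8.87%, 6.91%, 8.21% and 7.86% in female libraries, against 5.00%, 1.57%, 8.37%, 5.42% and 6.73% in male libraries. Of its male libraries, 4 lay below all female libraries and 1 within their range. At such low shares each value rested on few junction reads. How often other genes part the sexes to this degree in junction share was not counted. No sex difference is therefore read from the shares of Cdkn2a or Cdkn2c. Cdkn2b had the lowest mean share, with 2.54% to 3.97%. Gm45808, which overlaps Bax, and Tmppe, which overlaps Glb1, had 3 to 16 and 6 to 22 reads per library, few beside the 2395 to 3669 exon reads of Bax and the 1687 to 2337 of Glb1.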

How the data were processed

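The authors deposited 1 table of 52550 genes with read counts per library, which per the file headers are whole numbers that were not normalized, and are given apart for unique and total reads of a gene, its exon and intron reads, and its junction reads. The authors also deposited a p-value and a false discovery rate (FDR) per gene and, as a score, a signed fold from their own sex test, an EDGE test with tagwise dispersions per the file headers. Per the submitters' processing notes, mm10 was the build. Nothing in the sources used here names the aligner, the counting rules, the use of strand in counting or the annotation release. The table's other 100 value columns of single libraries were left out.

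The unique reads were tested in R 4.3.3 with edgeR 4.0.16 (filterByExpr with a minimum count of 10, TMM factors, robust quasi-likelihood fit, a single term for sex, two-sided, Benjamini-Hochberg adjustment over 16602 genes, calls at an adjusted p under 0.05). Log2 differences are female minus male. Intron against exon reads were tested over 11712 genes in edgeR with library, read class and their interaction with sex. Levels are TMM-scaled CPM, or exon or intron CPM per kilobase with lengths from the table. Covariation used log2(CPM + 0.1), on which Pearson's r and Spearman's rho were tested two-sided by 100000 permutations of the libraries (all permutations where under 10 libraries or within a sex), adjusted over 45 pairs, or over 130 relations for library measures, in Python 3.11 with scipy 1.17.1 and numpy 2.4.6. Promoter windows and their sequences are RefSeq's for GRCm38.p6, and gene spans are those of the table, counted from 1. The edgeR tests of sex and of intron against exon reads were tried on simulated data with known changes. The correlation test was set against that of scipy and tried on random values without a relation.

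The named genes are the 10 members, the members of each list with the 4 smallest p and its most abundant member, genes overlapping a member, the 5 genes closest to Trp53, Cdkn1a and Cdkn2a, and genes that check the sex labels. Others are marked as chosen after their values were seen. Some genes that this rule takes in are not reported here. The members and lists were chosen with earlier results of these data known. Cop1, listed among the p53 regulators, was not found under that symbol and is not analysed here. Counts limit the precision of low genes, and no molecular identifiers set reads of 1 molecule apart. Alternatives were other scaling factors, filters, read classes and tests (DESeq2 1.42.0, limma-voom and limma 3.58.1), a replicate block, sex-centred values and leaving out libraries. Intron reads for covariation, and leaving out both libraries numbered 5, were added after the data were seen.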

Additional observations from a re-analysis of the deposited data

Results flagged for a closer look

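Of 40 sets of 5 libraries tested with Dixon's test for 1 library far from the others of its sex (CPM and intron share of each member in each sex), 3 passed the critical value of 0.71, and chance passes about 1 in 20. Mdm2 in female replicate 5 was at 329 CPM, while the other 4 female libraries lay between 260 and 273 CPM. Cdkn2b in male replicate 5 was at 56.3 CPM, while the other 4 male libraries lay between 76.2 and 81.5 CPM. Female replicate 5 and male replicate 5 were also the extremes of their sex for several other members. The intron share of Cdkn2c in female replicate 1 was 20.1%, while the other 4 female libraries lay between 11.1% and 12.8%, on 31 to 62 intron reads per library over all 10.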

How the results depend on the processing

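No member was called for sex, or for intron against exon reads, under any alternative run, and the smallest adjusted p of a member was 0.605 (Cdkn1b) for sex and 0.991 for introns. Genes called over the whole table were 7 higher in females and 8 higher in males. They came to 8 and 22 with no filter, 11 and 61 with DESeq2, and 8 and 35 with the replicate block. The labels do not say what a replicate number stands for. Deviations of same-numbered libraries correlated by 0.16, 0.18, 0.26, 0.07 and 0.39, all positive. Of the 5 female libraries, 3 were closest to the male library of their own number. Not every r was above 0.1, and the samples were treated as unpaired in the main tests. A shared source of same-numbered libraries was not tested, and the permutations over all 10 libraries do not allow for one. With the replicate block 1485 genes had an unadjusted p under 0.05, against 921 in the main edgeR test. Leaving out 1 library gave 6 to 16 calls higher in females and 6 to 20 higher in males, the most without male replicate 1. Log2 sex differences near 0 changed sign. Leaving out libraries gave -0.0125 to 0.0609 for Trp53, -0.104 to 0.0146 for Mdm2, -0.0623 to 0.0208 for Cdkn1a, -0.223 to 0.0916 for Cdkn2a, -0.147 to 0.0685 for Cdkn2b and -0.117 to 0.0934 for Cdkn2c, and Cdkn2c was at -0.0102 with limma-voom and at -0.0101 with the replicate block. Intron calls were 3 higher in females and 1 in males. Those higher in males were 0 with a minimum of 50 exon and 50 intron reads (3 in females, 285 genes at an unadjusted p under 0.05), 0 with limma on log2 ratios (417 genes at an unadjusted p under 0.05), 2 with limma and the replicate block, and 0 to 1 when leaving out 1 library. Leaving out libraries gave intron differences of -0.123 to 0.00098 for Mdm2, -0.146 to 0.0839 for Cdkn2a and -0.0364 to 0.108 for Cdkn2b, and Cdkn2a was at 0.0026 without a TMM factor. Called pairs among members numbered 10. With unique exon reads they also numbered 10. Mdm2 with Glb1 and Mdm2 with Cdkn2c were then called (adjusted permutation p = 0.00977 and 0.0483), and Trp53 with Bax and Trp53 with Cdkn1a were not. There were 6 with sex-centred values (Trp53 with Bax at an adjusted permutation p of 0.0512, Trp53 with Cdkn1a at 0.0917, and Cdkn1b with Ccng1 and Cdkn2b with Cdkn2c at 0.0971 were not called), 1 without the 2 farthest libraries, 0 with intron reads, 1 without both libraries numbered 5 and 2 to 10 when leaving out 1 library, the fewest without female replicate 5. With intron reads the r of Mdm2 with Cdkn2a was 0.31 and that of Cdkn1b with Ccng1 was 0.20, and the cause was not tested. Few intron reads, 2 to 62 per library for Cdkn1b and Cdkn2c, limit the values of those members. Mdm2 had 1242 to 2530 and Cdkn2a 114 to 249 intron reads per library, so that limit does not cover their pair.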

Other observations

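Among the marker lists of other cell types, cartilage markers held the smallest adjusted p for sex, and none of them was called. Of 11 tested, 3 had a positive and 8 a negative log2 difference, female minus male, with a median of -0.39. Col10a1, a collagen of hypertrophic cartilage, was at 0.547 ± 0.084 CPM in female libraries and 1.42 ± 0.483 CPM in male libraries (SD, n = 5 each), with an adjusted p of 0.0669 in edgeR's quasi-likelihood test, and Hapln1, a cartilage link protein, was at 0.803 ± 0.319 CPM in female libraries and 2.28 ± 0.841 CPM in male libraries (edgeR adjusted p = 0.107). All 14 tested macrophage markers had a positive difference, with a median of 0.20, and the smallest adjusted p among them was 0.816 for Adgre1, at 2.79 ± 0.347 CPM in female libraries and 2.17 ± 0.296 CPM in male libraries.

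The other marker lists gave no call either. Endothelial markers had 6 positive and 4 negative differences among 10 tested, from -1.03 for Erg to 0.54 for Flt1. Epithelial markers had 3 and 5 among 8 tested, with Msln and Krt7 at -0.77 and -0.89 (edgeR adjusted p = 0.514 and 0.613). Fibroblast markers had 9 and 5 among 14, skeletal muscle markers 4 and 3 among 7, neural markers 4 and 4 among 8, and germ cell and gonad markers 4 and 1 among 5 tested. Epithelial markers summed to 73.0 to 104 CPM in female libraries and 78.4 to 138 CPM in male libraries. This sum had an r of 0.75 with Mdm2 over the 10 libraries (permutation p = 0.0123, adjusted p = 0.132, rho = 0.88 with an adjusted p of 0.0445), which was 0.59 without the 2 farthest libraries and 0.88 without female replicate 5. Gene by gene, 5 of the 8 had a positive and 3 a negative r with Mdm2, with a median of 0.30, from -0.39 for Upk3b to 0.79 for Krt19.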
